A study of Mus musculus with 15 samples.

Results

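Nuclear genes for respiratory complexes II to V were followed in left ventricles of mice that carry a changed codon of Rbm20, a splicing regulator of heart and skeletal muscle. The members were every gene symbol of the deposited count tables that starts as the 4 Sdh genes, Uqcr, Cyc1, Cycs, Cox4 to Cox8 or Atp5, with pseudogene and antisense symbols left out. This gave 49 of 40174 symbols: 4 for complex II, 9 for complex III, 1 for cytochrome c, 18 for complex IV and 17 for complex V. All mice were C57BL/6 at the age of 2 months. WT mice had no Rbm20 change, G-line mice carried Rbm20 S639G as +/- (HET) or -/- (HOM) in the labels' notation, and A-line mice carried Rbm20 S637A as +/- (HET) or -/- (HOM). Each of the 5 groups was labelled with 3 libraries, but replicates 2 and 3 of A-line HOM had counts equal to those of WT replicates 2 and 3 in every symbol. They were counted once, as WT, which left 13 libraries, 1 of them A-line HOM. Whether replicates came from separate mice is not said in the labels, so p-values measure only the spread between these libraries.

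The respiratory chain passes electrons from fuel to oxygen across the inner mitochondrial membrane. Complex II (succinate dehydrogenase) feeds electrons from the citric acid cycle into ubiquinone, complex III passes them to cytochrome c, complex IV passes them to oxygen, and complex V (ATP synthase) uses the proton gradient to make ATP. Complex II is encoded in the nucleus alone, whereas complexes III, IV and V also hold subunits encoded by mitochondrial DNA. Several subunits of complex IV have a muscle form and a form found in most tissues, and the heart, which works almost wholly by oxidative metabolism, expresses these genes at a very high level.

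Total counts ranged from 12959087 to 29436407 per library. Levels are given as CPM, a library's counts relative to its total, after scaling by the trimmed mean of M values (TMM). All 14 cardiomyocyte markers had counts in every library, and their summed level was 142859 to 166483 CPM in WT and 156435 to 164373 CPM in G-line HOM. More than any other marker, Ttn made up this sum, with 78807 to 97289 CPM in WT and 103925 to 110990 CPM in G-line HOM. The summed level of 8 fibroblast markers was 981 to 1725 CPM in WT and 2522 to 3500 CPM in G-line HOM. Mitochondrial ribosomal RNA took 20.2% to 23.4% of counts in WT and 10.8% to 13.5% in G-line HOM. Transcripts of atrial muscle stood out in 3 libraries: Myl7 reached 524 CPM in WT replicate 2, 240 CPM in replicate 3 of A-line HET and 45.8 CPM in replicate 1 of G-line HOM, and at most 3.43 CPM elsewhere.

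Many subunit genes of complexes II to V were lower in homozygous S639G hearts than in WT, and none was called higher. Of the 47 members tested, 21 fell and 0 rose in G-line HOM (edgeR quasi-likelihood test, adjusted p under 0.05), where 13.3% of all genes tested were called lower and 13.1% higher. The calls spread over the chain: 4 of 4 members of complex II, 3 of 9 of complex III, 5 of 16 tested of complex IV and 9 of 17 of complex V, while cytochrome c was not called. The difference was negative in 44 of 47 members, with a median of -0.35 on the log2 scale against 0.01 over all genes tested. All 3 G-line HOM libraries lay below all 3 WT libraries in 24 members, a separation seen in 21.1% of all genes tested. In bulk tissue, fewer cells of a type and less RNA per cell cannot be told apart. Of the 14 cardiomyocyte markers 7 were called lower and 1 higher, with a median of -0.33, close to that of the members, and of the 8 fibroblast markers 5 were called higher; the part of these shifts in the members' result was not tested.

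**Figure D1:**
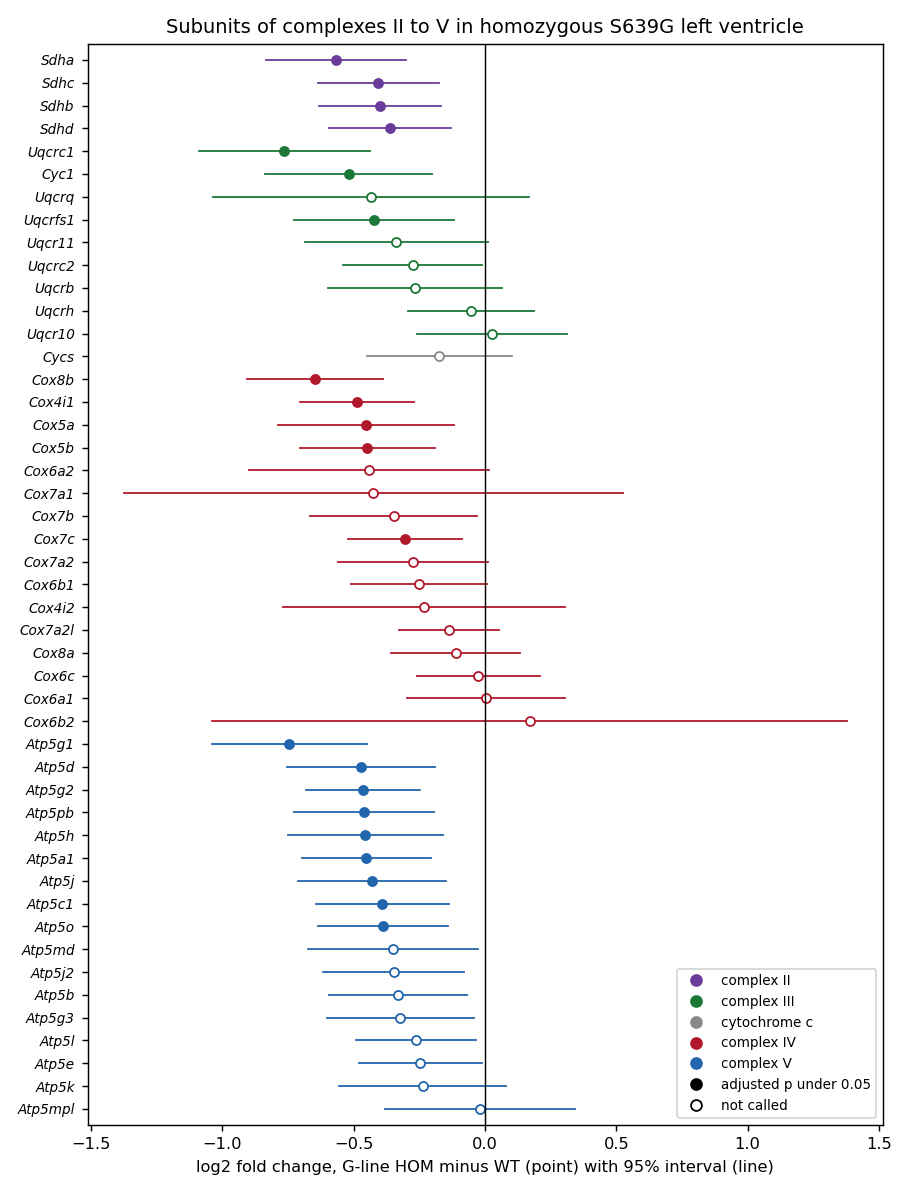
Log2 fold change of each of the 47 tested members, G-line HOM minus WT, with its 95% interval; colour marks the complex and filled points have an adjusted p under 0.05. All filled points lie left of 0, from -0.76 (Uqcrc1) to -0.31 (Cox7c), and the points near 0 are Uqcr10, Uqcrh, Cox6a1, Cox6c and Atp5mpl.

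The size of the count rested on a few libraries. G-line HOM replicate 1 held the lowest value of all 13 libraries in 36 of 47 members, at a median 67.3% of the WT mean, against 80.9% and 86.7% in replicates 2 and 3. Without it 8 members were called, with a median of -0.26. The number called was 9 without WT replicate 3 and 12 without WT replicate 1, and 7 members (Sdha, Uqcrc1, Cox4i1, Cox8b, Atp5a1, Atp5g1 and Atp5g2) stayed called whichever single library was left out. With the shared pair left out, so that WT was 1 library, Sdha, Cox8b and Atp5g1 were called, and with the pair placed in A-line HOM the number was 0, with medians of -0.39 and -0.37. Scaling by library totals, which moved the median of all genes to 0.17, left 10 members called lower, with a median of -0.19. Shares of all genes called were not taken for these changed fits.

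The promoters of these genes are shown for 3 members that the results below turn on: Uqcrc1 with the largest fall in log2 terms, and Cox8b and Cox8a, the muscle and ubiquitous forms of the same subunit. Uqcrc1 was chosen also because its promoter holds a searched motif, whereas that of Atp5g1, with the smallest adjusted p, holds none. RefSeq promoter windows of GRCm38.p6, 250 bases before to 50 bases after the annotated start, were at hand for 37 of the 49 members and for 27025 genes. Each is printed 5′ to 3′ on the strand of its gene, and the capitals mark the searched motifs found in it on either strand. The Uqcrc1 window lies at chr9:108936398-108936697 on the plus strand and holds GCGCATGC, core letters of the site of NRF1, a regulator of respiratory genes, on both strands in overlap, from 30 bases after the start. The Cox8b window lies at chr7:140900397-140900696 on the minus strand and holds TATAAA from 4 bases after the annotated start, not before it. The Cox8a window lies at chr19:7217567-7217866 on the minus strand and holds CTTCCGG in 2 places, from 5 bases before and from 32 bases after the start. This is the reverse complement of CCGGAAG, the letters bound by GABP, another such regulator.
Uqcrc1: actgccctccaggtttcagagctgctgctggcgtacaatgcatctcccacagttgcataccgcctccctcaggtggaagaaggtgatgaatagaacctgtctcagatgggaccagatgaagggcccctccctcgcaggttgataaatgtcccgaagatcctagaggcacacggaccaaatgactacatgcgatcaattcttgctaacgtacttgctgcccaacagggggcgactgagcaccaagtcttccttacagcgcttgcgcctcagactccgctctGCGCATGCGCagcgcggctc
Cox8b: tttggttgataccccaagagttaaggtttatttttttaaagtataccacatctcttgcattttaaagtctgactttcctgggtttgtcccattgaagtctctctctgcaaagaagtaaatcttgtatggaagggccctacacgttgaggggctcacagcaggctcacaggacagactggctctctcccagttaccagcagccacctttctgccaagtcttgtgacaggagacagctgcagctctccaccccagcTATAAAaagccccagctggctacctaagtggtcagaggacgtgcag
Cox8a: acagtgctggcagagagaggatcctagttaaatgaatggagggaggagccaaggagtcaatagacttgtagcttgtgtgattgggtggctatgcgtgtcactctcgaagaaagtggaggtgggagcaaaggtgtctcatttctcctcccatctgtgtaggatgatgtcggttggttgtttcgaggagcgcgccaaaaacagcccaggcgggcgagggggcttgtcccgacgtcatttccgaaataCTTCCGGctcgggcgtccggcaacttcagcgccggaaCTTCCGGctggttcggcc

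Genes were counted, and a gene with several windows counted once, with a match in any of them. GCGCATGC was found for 8 of the 37 members (21.6%) and for 3.05% of all genes, and CCGGAAG for 13 (35.1%) against 9.93%. AAGGTCA, the letters of the oestrogen-related receptors (ERR), was found for 5 members (13.5%) against 5.38%. AAGATGGC, the letters of YY1, was found for 3 (8.11%) against 3.19%, and TATAAA for 4 (10.8%) against 15.7%. All motifs were sought on both strands, and none of these 5 strings holds another. The motifs were chosen with the calls known. Among members with a window, at least 1 of the NRF1, GABP, ERR and YY1 strings was found for 7 of the 17 that fell in G-line HOM (41.2%). It was found for 12 of the 19 tested members that were not called (63.2%), for 51.4% of the members and for 19.7% of all genes. Cox8b had 2 CpG pairs in its window, the fewest of the 37 members, whose median was 19, against a median of 8 over all genes. Cox8a had 19 and Uqcrc1 15. GCGCATGC and CCGGAAG themselves hold CG pairs, of which the members' windows had more than those of all genes. The part of this in the motif shares was not tested. These matches describe the letters of the windows and nothing of binding.

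Complex II was the only complex of which all members fell in G-line HOM. Sdha, the flavoprotein that oxidises succinate, stood at 1510, 1326 and 1479 CPM in WT and at 808, 967 and 1139 CPM in G-line HOM. All G-line HOM libraries lay below all WT libraries, and Sdha fell by 0.57 ± 0.12 on the log2 scale (adjusted p = 0.0038), to 0.675 of WT. Its values were 1281, 1355 and 1229 CPM in G-line HET, 1361, 1152 and 1101 CPM in A-line HET and 1263 CPM in A-line HOM. These overlapped WT in A-line HET and in G-line HET, and the A-line HOM library lay just under the lowest WT library.

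The iron-sulphur subunit Sdhb fell by 0.40 ± 0.11 on the log2 scale (adjusted p = 0.013), from 529, 469 and 551 CPM in WT to 348, 408 and 417 CPM in G-line HOM. G-line HET libraries held 555, 538 and 563 CPM of Sdhb, all above the lowest WT library, whereas A-line HET replicate 3, at 430 CPM, was below it. The membrane anchors Sdhc and Sdhd, which bind ubiquinone, fell by 0.41 ± 0.11 and 0.36 ± 0.11 (adjusted p = 0.012 and 0.024). Sdhc stood at 317 ± 20.2 CPM in WT and 239 ± 26.7 CPM in G-line HOM, and Sdhd at 337 ± 26.1 and 262 ± 27.0 CPM (mean ± SD, n = 3). The 4 genes of this complex thus ranged from -0.57 to -0.36. Without G-line HOM replicate 1 the adjusted p of Sdhb, Sdhc and Sdhd passed 0.05, while that of Sdha did not.

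**Figure D2:**
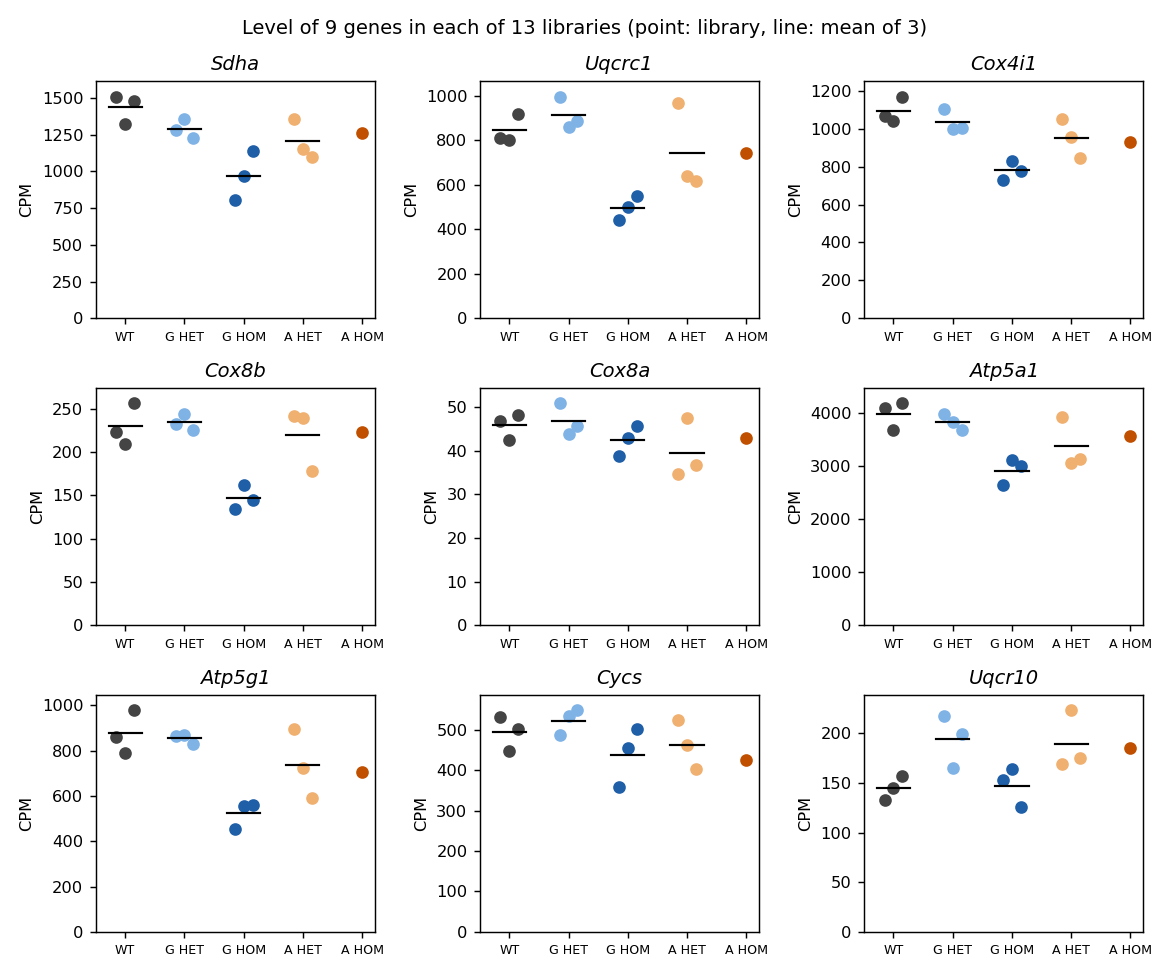
Level in CPM of 9 genes in each of the 13 libraries, each point a library and each line the mean of 3 libraries, on axes from 0. In Uqcrc1, Cox4i1, Cox8b, Atp5a1, Atp5g1 and Sdha the 3 G-line HOM points lie below all WT points, while Cox8a and Cycs overlap and Uqcr10 is highest in the heterozygous groups.

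In complex III 3 of 9 members fell. Uqcrc1, a core protein of the matrix side, stood at 813, 801 and 921 CPM in WT, at 997, 861 and 886 CPM in G-line HET and at 442, 499 and 551 CPM in G-line HOM. The homozygous G-line libraries were the 3 lowest of the 13, and Uqcrc1 fell by 0.76 ± 0.15 on the log2 scale (adjusted p = 0.0020), the largest fall among the members. A-line HET libraries ranged from 619 to 969 CPM, 1 above all WT libraries and the other two below, and the A-line HOM library held 743 CPM.

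Cyc1, cytochrome c1, which hands the electron to cytochrome c, fell by 0.52 ± 0.15 (adjusted p = 0.018), from 421, 377 and 466 CPM in WT to 256, 308 and 318 CPM in G-line HOM, with no overlap. Uqcrfs1, the Rieske iron-sulphur protein, fell by 0.42 ± 0.14 (adjusted p = 0.040), but its libraries overlapped: 459 CPM in G-line HOM replicate 3 was above 457 CPM in WT replicate 2. The other core protein, Uqcrc2, differed by -0.28 and was not called (adjusted p = 0.12). Cyc1 was not called without WT replicate 3 or without G-line HOM replicate 1, and Uqcrfs1 was lost in 7 of the 13 fits that left out 1 library.

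The small subunits of complex III differed from each other. Uqcr10 and Uqcrh, the hinge protein, were close to WT in G-line HOM (0.03 and -0.05 on the log2 scale), and Uqcrb, Uqcr11 and Uqcrq lay at -0.27, -0.34 and -0.43 without passing the test. Uqcrq, which varied most, stood at 66.4, 88.9 and 84.1 CPM in WT, 150, 87.6 and 99.9 CPM in G-line HET and 68.1, 65.9 and 43.1 CPM in G-line HOM. Uqcr10, Uqcr11, Uqcrq, Atp5d and Cox6a2 were among 9 members in which G-line HOM replicate 3, not replicate 1, was the lowest of its group. These genes were picked out after their values were seen.

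Uqcr10 had the smallest adjusted p of all members in both heterozygous groups. It stood at 133, 145 and 157 CPM in WT, 218, 165 and 200 CPM in G-line HET, 169, 223 and 175 CPM in A-line HET and 185 CPM in A-line HOM. All 7 of these mutant libraries lay above all WT libraries, but the differences did not pass the test: 0.42 ± 0.13 in G-line HET (adjusted p = 0.069) and 0.39 ± 0.13 in A-line HET (adjusted p = 0.097), from the same WT libraries. In G-line HOM its values of 153, 164 and 125 CPM overlapped WT.

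Cycs, cytochrome c itself, the mobile carrier between complexes III and IV, was not called in any comparison. Its values were 533, 448 and 502 CPM in WT and 358, 455 and 501 CPM in G-line HOM, with a difference of -0.17 and a 95% interval from -0.45 to 0.10.

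In complex IV, cytochrome c oxidase, 5 of 16 tested members fell. Cox8b, the muscle form of subunit 8, stood at 223, 210 and 257 CPM in WT and 135, 162 and 144 CPM in G-line HOM, with no overlap. It fell by 0.65 ± 0.12 on the log2 scale (adjusted p = 0.0013). G-line HET held 233, 245 and 226 CPM and A-line HOM 224 CPM, both within the WT range, while A-line HET held 242, 240 and 178 CPM.

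Cox4i1, the main form of the regulatory subunit 4, fell by 0.49 ± 0.10 (adjusted p = 0.0027), from 1069, 1042 and 1171 CPM in WT to 732, 833 and 778 CPM in G-line HOM. These groups did not overlap. Cox5b, a zinc-binding subunit, fell by 0.45 ± 0.12 (adjusted p = 0.012), from 308, 264 and 316 CPM to 187, 222 and 242 CPM, also without overlap. Cox5a and Cox7c were the other called members, at -0.45 and -0.31. Of the 13 fits that left out 1 library, Cox5b stayed called in 11, Cox7c in 7 and Cox5a in 5. At the other end, Cox6c lay at -0.03, and Cox7a2l, which takes part in joining complexes III and IV, at -0.14; neither was called.

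The paired forms of complex IV subunits and of the ATP synthase c subunit allow a comparison within each library that does not depend on scaling. The log2 ratio of Cox8b to Cox8a was 2.25, 2.31 and 2.41 in WT and 1.79, 1.91 and 1.66 in G-line HOM; the G-line HET libraries had 2.19, 2.48 and 2.30. All G-line HOM libraries lay below every other library, by 0.53 on average from WT, since Cox8a was at 45.9 ± 3.08 CPM in WT and 42.5 ± 3.37 CPM in G-line HOM (mean ± SD, n = 3). The ratio of Cox6a2, the heart and skeletal muscle form of subunit 6a, to Cox6a1 was 3.65, 3.23 and 3.54 in WT and 3.06, 3.18 and 2.77 in G-line HOM, a mean difference of -0.47. Here too the groups did not overlap, although 3.23 in WT and 3.18 in G-line HOM lay close.

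Of the ATP synthase pairs, the ratio of Atp5g1 to Atp5g3 was 0.50, 0.78 and 0.75 in WT and 0.27, 0.36 and 0.14 in G-line HOM, a mean difference of -0.42 without overlap. Atp5g2 to Atp5g3 overlapped between these groups, at -0.15. Each of the 3 ratios separated in G-line HOM had an exact two-sided permutation p of 0.1, the smallest that 3 against 3 libraries can give. After adjustment over 21 tests of 7 pairs it was 0.525. In G-line HET the differences from WT of the same 3 ratios were 0.00, -0.04 and -0.06, and in A-line HET 0.15, 0.18 and -0.15, all with overlap. The A-line HOM library gave 2.38, 3.51 and 0.48, against WT ranges of 2.25 to 2.41, 3.23 to 3.65 and 0.50 to 0.78. Cox6b2 to Cox6b1 was also separated from WT in A-line HET, at -0.76, with the same permutation p of 0.1 and 0.525 after adjustment. That ratio rested on 3, 2 and 3 counts of Cox6b2 in A-line HET and 6, 13 and 7 in WT.

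**Figure D3:**
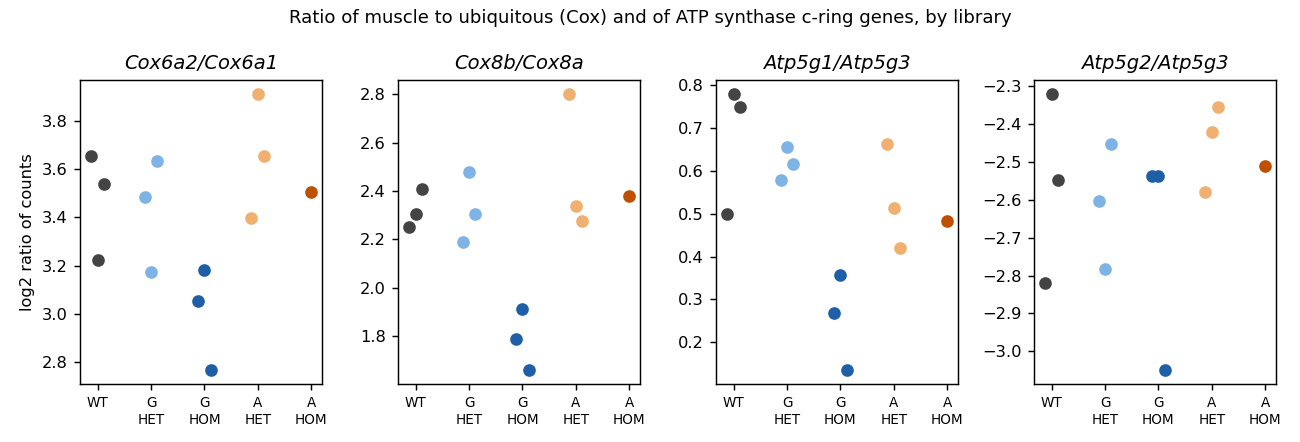
Log2 ratio of counts of paired subunit genes in each library, by group, each point a library and each panel on its own scale. The 3 G-line HOM points lie below all WT points for Cox6a2/Cox6a1, Cox8b/Cox8a and Atp5g1/Atp5g3, and overlap WT for Atp5g2/Atp5g3.

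Other isoforms of complex IV were rare. Cox7a1, the heart and muscle form of subunit 7a in textbooks, was counted at 0.471 to 1.92 CPM over the 13 libraries, and Cox7a2, the ubiquitous form, at 178 to 290 CPM. The cause of this low count was not tested. Cox4i2, a form known from lung and from low oxygen, stood at 2.29 to 4.96 CPM and Cox6b2, a testis form, at 0.117 to 0.971 CPM; no comparison called either. Cox7b2 reached at most 0.172 CPM and did not pass the filter on low counts. Cox8c, a testis form, had 0 counts in all libraries, where 3 counts over their total would be 0.0103 CPM, an approximate limit of detection.

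ATP synthase held the most called members, 9 of 17, and all 17 differences in G-line HOM were negative. Atp5g1, 1 of 3 genes whose mature product is the same c subunit of the rotor ring, stood at 861, 790 and 979 CPM in WT and at 454, 557 and 559 CPM in G-line HOM. The groups did not overlap, and Atp5g1 fell by 0.74 ± 0.14 on the log2 scale (adjusted p = 0.0012). G-line HET held 865, 871 and 827 CPM, within the WT range, while A-line HET held 896, 722 and 592 CPM and A-line HOM 703 CPM.

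Atp5g2 fell by 0.47 ± 0.10 (adjusted p = 0.0035), from 86.2, 92.0 and 99.6 CPM in WT to 64.8, 74.9 and 61.4 CPM in G-line HOM. Atp5g3, the third c subunit gene, differed by -0.32 and was not called (adjusted p = 0.084). Per kilobase of all annotated exons, WT RNA levels were 252 CPM per kb for Atp5g3, 178 for Atp5g1 and 55.3 for Atp5g2. In CPM Atp5g1 stood above Atp5g3 (876 against 550), and its exons span 4912 bases against 2181. The share of each gene in the protein was not measured.

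The catalytic head of the enzyme is built from the alpha and beta subunits. Atp5a1, the alpha subunit, had the highest level of all members per kilobase of all annotated exons in WT, 1271 CPM per kb. Atp5b, the beta subunit, followed at 962 and Cox4i1 at 706. This order depends on the length used. All exons of Atp5b span 4237 bases and its longest transcript 1916, against 3135 and 2674 for Atp5a1. By longest transcript, Atp5b would stand above Atp5a1, as it also did in CPM (4074 against 3984 in WT). Atp5a1 stood at 4095, 3676 and 4182 CPM in WT and at 2635, 3105 and 2999 CPM in G-line HOM, and fell by 0.45 ± 0.11 on the log2 scale (adjusted p = 0.0093). Atp5b differed by -0.33 and did not pass the test (adjusted p = 0.061), although its 3 G-line HOM libraries, up to 3694 CPM, lay below the 3 WT libraries, from 3703 CPM.

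The remaining called members belong to the central and peripheral stalks: Atp5c1 (gamma) and Atp5d (delta) of the first, and Atp5pb (subunit b), Atp5h (d), Atp5j (F6) and Atp5o (OSCP) of the second. They differed by -0.47 to -0.39, each without overlap with WT, and none of these 6 stayed called in all fits that left out 1 library. Atp5e (epsilon), also of the central stalk, was not called, at -0.25, and neither were the small membrane subunits Atp5j2, Atp5k, Atp5l, Atp5md and Atp5mpl, at -0.35 to -0.02. Over all 47 members Spearman's rho of the log2 fold change with transcript length was -0.31, a description across genes of the same libraries; the median was -0.31 in the 24 members with transcripts up to 1001 bases and -0.40 in the 23 longer ones.

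Summed by complex, the members fell short of WT by a similar share in each complex of G-line HOM. The sum was 71.5% of the WT mean for complex II, 76.8% for complex III, 79.3% for complex IV and 75.8% for complex V, and Cycs stood at 88.7%. For complex V this meant 15111, 13273 and 15195 CPM in WT against 9433, 11362 and 12226 CPM in G-line HOM, without overlap. Without mitochondrial ribosomal RNA, the members together took 2.97% to 3.25% of counts in WT and 2.08% to 2.65% in G-line HOM. The sums in G-line HET were 95.9% to 107.6% of WT, those in A-line HET 87.5% to 94.7% and those in A-line HOM 86.2% to 95.1%. No test was made on the sums.

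**Figure D4:**
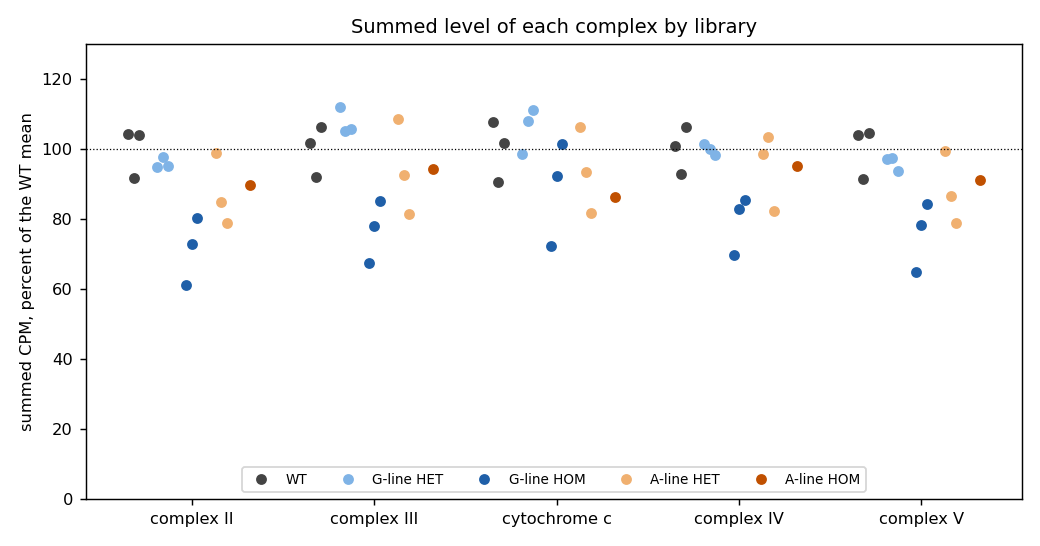
Summed CPM of the members of each complex in each library, as a percent of the WT mean, on an axis from 0; colours mark the 5 groups. The 3 G-line HOM points lie below all WT points in complexes II to V and overlap WT for cytochrome c, and A-line HET replicate 3 is the lowest A-line HET point throughout.

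With 1 mutated copy, in G-line HET, 0 of 47 members were called, against 7.52% of all genes tested, with a median of 0.01. By unadjusted p 2 members were under 0.05, Uqcr10 at 0.42 and Cox6a1 at 0.30, and DESeq2 called 1, Uqcr10. The 4 complex II genes lay between -0.16 (Sdha) and 0.10, and Uqcrc1, Cox8b and Atp5g1 at 0.11, 0.03 and -0.04, with 95% intervals of -0.21 to 0.44, -0.23 to 0.28 and -0.33 to 0.26.

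Directly compared, G-line HOM lay below G-line HET in 19 members and above it in 0, where 8.42% of all genes were called lower and 6.22% higher. This comparison shares the G-line HOM libraries with the comparison to WT. All 4 Sdh genes fell again, with Sdhb at -0.50 ± 0.11 (adjusted p = 0.0094), and 4 of 9 members of complex III, 5 of 16 tested of complex IV and 6 of 17 of complex V were called. The smallest adjusted p-values were those of Uqcrc1 (-0.88 ± 0.15, adjusted p = 0.0031), Cox8b (-0.67 ± 0.12, adjusted p = 0.0037), Atp5g1 (-0.71 ± 0.14, adjusted p = 0.0056) and Atp5d (-0.67 ± 0.13, adjusted p = 0.0060). Among these 4, Atp5d had 262, 202 and 219 CPM in G-line HET against 185, 193 and 218 CPM in WT. Next were Atp5g2 (-0.45), Cyc1 (-0.63), Cox4i1 (-0.41), Uqcr11 (-0.63) and Sdhd (-0.41).

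The 6 members Sdhb, Uqcrc1, Cox8b, Atp5d, Atp5g1 and Atp5g2 stayed called in every alternative run for this comparison. The number called was 6 without G-line HET replicate 1, 7 without G-line HOM replicate 1, 9 without G-line HOM replicate 2 and 9 without G-line HET replicate 3. It was also 9 without the 3 libraries with the most Myl7 and Sln, and 10 with library totals, which moved the median of all genes to 0.17.

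**Figure D5:**
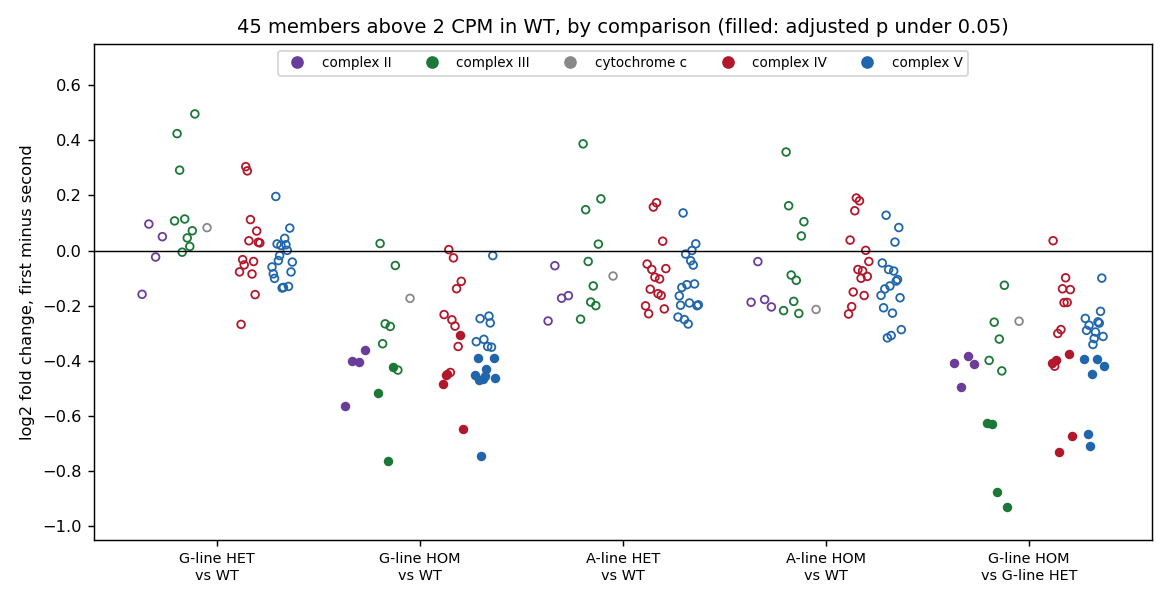
Log2 fold change of the 45 tested members with a WT mean above 2 CPM in 5 comparisons, each point a gene, coloured by complex and filled where the adjusted p is under 0.05. Filled points appear only in the 2 comparisons of G-line HOM, with WT and with G-line HET; the 4 comparisons with WT share the WT libraries.

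The S637A line gave no called member. In A-line HET 0 of 47 members were called, against 7.96% of all genes, with a median of -0.12 and 36 negative values; 1 member, Uqcr10, had an unadjusted p under 0.05 and DESeq2 called 0. A-line HET replicate 3 held the lowest value of its group in 42 of 47 members, at a median 80.6% of the WT mean, against 102% and 97.2% in replicates 1 and 2. Without A-line HET replicate 1, 4 members were called: Cyc1, Uqcrc1, Atp5a1 and Atp5g1, all lower. The share of all genes called in that fit was not taken. The 4 Sdh genes lay between -0.26 and -0.06 in A-line HET.

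The A-line HOM library, tested with the spread of the other groups, gave 0 called members against 4.68% of all genes, with 0 at an unadjusted p under 0.05 and 0 by DESeq2. Its median was -0.11, and Sdha, Uqcrc1, Cox8b and Atp5g1 lay at -0.19, -0.18, -0.04 and -0.32, with 95% intervals of -0.57 to 0.19, -0.65 to 0.28, -0.40 to 0.33 and -0.74 to 0.11.

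Between the lines, A-line HET and G-line HET differed in 0 called members, against 0.0284% of all genes; 3 members (Cyc1, Cox6a1 and Atp5d) had an unadjusted p under 0.05, all lower in A-line HET, and DESeq2 called 0. Between the homozygous groups 0 members were called against 0.0398% of all genes, and DESeq2 called 0. Here 46 of 47 differences were positive, with a median of 0.25, and 10 members had an unadjusted p under 0.05, all higher in A-line HOM. Cox8b, at 0.61 ± 0.16, had the smallest adjusted p of 0.20. With the shared pair placed in A-line HOM, 6 members were called higher than in G-line HOM, and with the pair in both groups 9. The pair's counts are also those of WT replicates 2 and 3, so these fits largely repeat the comparison of G-line HOM with WT. All members called in them were also called lower in G-line HOM than in WT.

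Among the genes that build these complexes, 11 of 35 tested assembly factors fell in G-line HOM and 1 rose, with a median of -0.25, where 13.3% of all genes were called lower and 13.1% higher. Atpaf1, a chaperone of the ATP synthase head, fell by 1.10 ± 0.15 on the log2 scale (adjusted p = 0.00012), from 37.1 to 17.4 CPM. Taco1, which is needed to translate mitochondrial Cox1, fell by 0.90 ± 0.16, Cox10, of heme a synthesis, by 0.59 ± 0.10, and Coa5, of complex IV assembly, by 0.55 ± 0.10. The gene that rose, Cox19, which takes part in copper supply to complex IV, went from 15.3 to 24.7 CPM.

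Of 21 regulators of respiratory genes 4 fell and 1 rose in G-line HOM, where 13.3% of all genes were called lower and 13.1% higher. The median of the regulators was -0.16. Esrrg, an oestrogen-related receptor, fell by 0.47 ± 0.10 (adjusted p = 0.0027), Polrmt, the mitochondrial RNA polymerase, by 0.71, Mterf2 by 0.74 and Ppara, a receptor that drives fatty acid oxidation genes, by 0.35, while Mterf3 rose by 0.30, a call that did not hold without WT replicate 2 or WT replicate 3. In G-line HET 2 of the 21 regulators and 2 of the 35 assembly factors were called, where 7.52% of all genes were called. The coactivator Ppargc1a rose by 0.47 (adjusted p = 0.038) and Gabpa fell by 0.35 (adjusted p = 0.026), and the assembly genes Higd2a and Cox19 rose by 0.38 and 0.55 (adjusted p = 0.015 and 0.046). In A-line HET 2 of the 35 assembly factors and 0 of the 21 regulators were called, where 7.96% of all genes were called. The assembly genes Coa5 and Atpaf1 fell by 0.46 and 0.54 (adjusted p = 0.011 and 0.035). Each of these calls in the heterozygous groups was lost without WT replicate 1 or WT replicate 3, or both, and with the shared pair out of WT.

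Complex I, the entry point of the chain, had 21 of 40 tested subunit genes lower and 0 higher in G-line HOM, with a median of -0.41, where 13.3% of all genes were called lower and 13.1% higher. These genes share the libraries with the members, and no difference between complexes was tested.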

How the data were processed

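Total RNA of mouse left ventricle (TRIzol, DNase, TruSeq Total RNA Gold libraries) was sequenced, as the labels' protocols state. The submitters' processing notes name bcl2fastq 2.20.0.422, Trimmomatic 0.39, STAR 2.7.4a and the mm39 (GRCm39) build; not given in the sources used here were the counting program, the annotation and the strand setting. The deposited tables hold raw counts for each gene symbol, whole numbers used as they stand. Whether reads of overlapping genes (Atp5j and Gabpa, Atp5a1 and Haus1, Atp5d and Cbarp, Cox6a2 and Itgad) and of processed pseudogenes were kept apart is therefore not known.

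Genes with at least 0.422 CPM in 3 libraries and 15 counts in all were kept (17588). One model with a mean per group over 13 libraries (8 residual degrees of freedom) was fitted with TMM factors and edgeR 4.0.16's robust quasi-likelihood method in R 4.3.3. Tests were two-sided, adjusted by Benjamini-Hochberg over all genes, at a threshold of 0.05; log2 fold changes are ± SE. Ratios used counts plus 0.5. Lengths came from GENCODE models of GRCm38. A-line HOM, with 1 library, took its spread from the other groups. The tests were also run on simulated counts with the same spread for every gene and no shifts of whole libraries. That run cannot vouch for the calls in these libraries. Alternatives were DESeq2 1.42.0, other scalings and filters, other placements of the shared pair, a replicate block and left-out libraries. Shares of all genes called are given for the edgeR model above, not for the alternatives. Members and lists were chosen with earlier results of these data known. Genes were named by rule: all Sdh genes, the 3 called members of smallest adjusted p in complexes III, IV and V, paralogous pairs, members under the filter, up to 10 called members between mutant groups and up to 4 called genes per other list with those of opposite sign; others named were chosen after their values were seen.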

Additional observations from a re-analysis of the deposited data

How the results depend on the processing

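Depth limits the rare isoforms Cox7a1 and Cox6b2, whose 95% intervals were the widest of the 47 members in G-line HOM against WT. For G-line HOM against WT the 21 called members became 23 with DESeq2, 10 with library totals, 8 without the 2 libraries with shifted clock genes (G-line HOM replicate 1 and A-line HET replicate 2), 3 with the shared pair left out and 0 with it as A-line HOM, and 8 to 29 with single libraries left out. For G-line HOM against G-line HET the 19 became 10 with library totals, 9 without the 3 libraries with atrial transcripts, 8 without those with shifted clock genes, 11 with the shared pair left out and 9 with it as A-line HOM, and 6 to 26 with single libraries left out. With the replicate number as a block the counts were 18 and 12. Same-numbered libraries did not deviate together (2 of 18 pairs over 0.1, from -0.27 to 0.15), so the numbers were not taken to pair mice. No clock gene values are given here, so the words shifted clock genes only mark which 2 libraries were left out.

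G-line HET against WT gave 1 called member (Uqcr10, higher) with DESeq2, with no filter beyond 1 count, with the 2 groups alone and without the libraries with shifted clock genes, and 0 to 1 with single libraries left out. A-line HET against WT gave 1 with library totals (Uqcr10, higher), 1 without the libraries with shifted clock genes (Cox8a, lower) and 0 to 4 with single libraries left out. The heterozygous groups gave 0 to 2 against each other, the 2 being Cyc1 and Uqcrc1 without A-line HET replicate 1. A-line HOM against G-line HOM gave 6 with the shared pair as A-line HOM and 9 with it in both groups. These fits largely repeat the comparison with WT, since the pair's counts are also WT counts.

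With library totals the log2 difference of the sums in G-line HOM was -0.32 for complex II, -0.22 for III, -0.18 for IV and -0.24 for V, against -0.48, -0.38, -0.33 and -0.40. With the shared pair left out, 4 small ratio differences changed sign and moved by at least the larger of the groups' SDs. They were Cox4i2 to Cox4i1 (0.17), Atp5g1 to Atp5g3 (0.12) and Atp5g2 to Atp5g3 (0.21) in G-line HET, and Atp5g1 to Atp5g3 (0.031) in A-line HET. Changes of sign with a smaller move were not counted, such as Cox7a1 to Cox7a2 in G-line HOM and in G-line HET. Of 3316 values of single genes under the alternatives, 229 lost the call, 7 gained it and 31 uncalled ones changed sign by at least their SE. The other 3049 kept their side of the threshold, and called ones kept their direction. A change of sign by less than the SE in an uncalled gene was counted among these 3049. The cause of the changes was not tested beyond the fewer libraries that some of these fits hold.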

Other observations

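In G-line HOM, 10 of 22 genes of mitochondrial carriers, channels and cristae fell and 0 rose, with a median of -0.37 on the log2 scale, where 13.3% of all genes were called lower and 13.1% higher. Opa1, the fusion protein that shapes cristae, fell by 0.70 ± 0.12 (adjusted p = 0.00074), Phb2, a prohibitin of the inner membrane, by 0.57 ± 0.10 and Vdac1, the outer membrane channel, by 0.67 ± 0.12. Ucp3, a muscle uncoupling protein, fell by 3.66 ± 0.55, from 55.0 to 4.29 CPM, and by 2.07 ± 0.50 in G-line HET, to 13.1 CPM, the 1 gene of this list called there (adjusted p = 0.040, lost with the shared pair out of WT). In A-line HET 2 of the 22 were called, where 7.96% of all genes were: Opa1 and Phb2 fell by 0.47 and 0.37 (adjusted p = 0.029 and 0.038), calls that were lost without WT replicate 1 and without WT replicate 3.

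Of 16 genes of protein import and the matrix 9 fell and 1 rose in G-line HOM, beside the same shares of all genes. Sod2, the matrix superoxide dismutase, fell by 1.11 ± 0.21, Cs, citrate synthase, by 0.81 ± 0.17, and the import genes Timm44 and Timm23 by 0.58 and 0.54. Lonp1, the matrix protease, rose by 0.36 ± 0.09 in G-line HOM (adjusted p = 0.010) and by 0.59 ± 0.13 in the A-line HOM library (adjusted p = 0.018); both calls were lost without WT replicate 1. In A-line HET 1 of the 16, the import receptor Tomm70a, fell by 0.35 (adjusted p = 0.046, lost in several alternatives, RLE scaling among them).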
